A study of Homo sapiens with 18 samples.

Results

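Rh30 cells that stably express 3xFLAG-DNAJC17-dRRM, a tagged *DNAJC17* allele without its RNA recognition motif (ΔRRM), were compared with parental Rh30 cells. Rh30 is an established line of alveolar rhabdomyosarcoma, a childhood tumour with features of skeletal muscle. The ΔRRM cells carried sgDNAJC17, an sgRNA aimed at the 5' end of the endogenous gene, and the parental cells carried sgCTL, a non-targeting sgRNA. All cells held dCas9-KRAB, the repressor used for CRISPRi, and were kept in puromycin for 72 hours after transduction with the sgRNA. The comparison took 6 of the 18 libraries of the series, 3 in each group (A, B and C), chosen by their labels alone. The series also held 3 parental Rh30 libraries with sgDNAJC17 (the knockdown) and libraries of the same kinds from ES8, an Ewing sarcoma line. The ΔRRM allele was driven from an EF1 promoter in cells selected with hygromycin, so these cells were a population apart from the parental cells. No library of the series held ΔRRM cells with sgCTL, so in ΔRRM cells the allele, the sgRNA and the separate population cannot be told apart. The knockdown libraries show the sgRNA in parental cells only. Wells plated in triplicate are the replicates, and the p-values therefore measure the spread between these libraries alone.

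DNAJC17 belongs to the J-domain proteins, co-chaperones whose J-domain stimulates the ATPase of HSP70. It is a nuclear member of the family that is linked to the spliceosome, and it carries an RNA recognition motif outside the J-domain. Alveolar rhabdomyosarcoma cells are held in an unfinished muscle state, in which the myogenic factors MYOD1 and MYOG are expressed but fusion into fibres stays incomplete.

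Library totals were 41720955 to 45934827 counts with sgCTL and 35342393 to 45031439 counts in ΔRRM cells. The 10 highest genes held 6.97% to 7.22% of counts with sgCTL and 8.28% to 8.60% in ΔRRM cells. TMM, edgeR's scaling by the bulk of genes, gave factors of 1.07 to 1.11 for sgCTL and 0.908 to 0.943 for ΔRRM libraries. Levels below are in CPM, counts brought to a common library size with that scaling. Of 10 Rh30 identity markers, 9 were expressed in all 6 libraries and *TFAP2B* had 0 counts throughout. The myogenic factor *MYOD1* held at least 19448 counts in every library.

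The labels were first checked on *DNAJC17* (ENSG00000104129, minus strand of chromosome 15, from 40765155 to 40807478 in GRCh38). The sgCTL libraries held 10.3, 10.6 and 9.56 CPM and the ΔRRM libraries 330, 329 and 307 CPM. The gene stood higher in 3 of 3 ΔRRM libraries, with a log2 fold change of 4.99 (SE 0.08, edgeR adjusted p = 7.11e-53). Here and below this is the quasi-likelihood p after Benjamini-Hochberg adjustment over all genes tested. An exact permutation test over the 6 libraries gave a two-sided p = 0.1, the smallest that 3 against 3 allows. Counts per gene do not separate reads of the introduced copy from those of the endogenous gene. Its neighbour *ZFYVE19*, whose start lies 392 bases from that of *DNAJC17* on the other strand, had 10.5, 11.4 and 11.6 CPM with sgCTL and 4.03, 4.99 and 4.36 CPM in ΔRRM cells. It fell by 1.32 on the log2 scale (SE 0.11, edgeR adjusted p = 5.57e-17), and its change was -0.82 in the knockdown, which shares the sgCTL libraries. *C15orf62* did not pass the test (log2 fold change 0.83, edgeR adjusted p = 0.066), and *SUMO2P15*, *GCHFR*, *PPP1R14D*, *SPINT1-AS1* and *SPINT1* had too few counts to be tested.

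A call needed a change of 2-fold or more and an adjusted p below 0.05. Of 15442 genes tested, 1540 were called, or 9.97%, with 1028 higher (6.66%) and 512 lower (3.32%) in ΔRRM cells. Whatever the size of the change, 7596 genes were higher and 7846 lower. Counts of members in the lists below are to be read beside these shares, and lists with few calls can lie close to them. Without the fold change requirement 10626 genes, 68.8% of those tested, had an adjusted p under 0.05. The balance of directions depended on scaling. With library totals in place of TMM, 422 genes were called up and 1476 down, and the median log2 fold change of all genes moved from -0.01 to -0.25. A correction took out each library's trend with length and GC content, after which 505 genes (3.27%) were called up and 458 (2.97%) down. The correction kept 389 of the up calls and 256 of the down calls. The same contrast in ES8, which shares no library with this one, called 6 of 17199 genes (0.0349%). Replicates of ES8 ΔRRM cells spread further beyond counting error (chi-square per gene of 9.83 to 35.0) than those of Rh30 ΔRRM cells (7.93 to 14.5). ES8 sgCTL replicates spread less (3.042 to 4.353) than Rh30 sgCTL replicates (4.355 to 12.393). The power to make calls was not compared between the lines. The difference between the lines was tested as an interaction, which passed for 1255 of 18854 genes, or 6.66%. Within Rh30, ΔRRM against knockdown libraries, which share the sgRNA, gave 1192 calls (7.79% of 15309 genes), and the knockdown against sgCTL gave 239 (1.55% of 15391).

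Of the 15 called genes with the largest fall and a mean count of at least 100, *SPN* led, the gene of the sialophorin CD43. It had 17.8, 15.9 and 16.2 CPM with sgCTL and 2.80, 1.63 and 2.18 CPM in ΔRRM cells (log2 fold change -2.92, SE 0.12, edgeR adjusted p = 7.1e-29). *MYMK*, which encodes the membrane protein myomaker needed for myoblasts to fuse, had 5.67, 5.69 and 5.12 CPM against 0.76, 0.68 and 1.06 CPM (-2.74, SE 0.17, edgeR adjusted p = 2.99e-21). *ZNF853*, a zinc finger gene, had 45.4, 42.5 and 39.9 CPM against 8.08, 8.06 and 8.32 CPM (-2.39, SE 0.08, edgeR adjusted p = 1.72e-33). The matrix genes *MFAP5* (-2.38) and *MXRA5* (-2.30) and the myosin-binding gene *MYBPH* (-1.97) followed. Groups that do not overlap were a condition for naming these 15 genes, and 71.7% of all genes tested met it. The others among the 15 were *OSBP2* (-2.20), *DNAH6* (-1.91), *PKP1* (-1.90), *OLFML2A* (-1.89), *MAT1A* (-1.88), *TGFB2-AS1* (-1.86), *GLI2* (-1.77), *TGFB2* (-1.77) and *LIMCH1* (-1.69). All 15 kept their call after the GC and length correction.

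**Figure D1:**
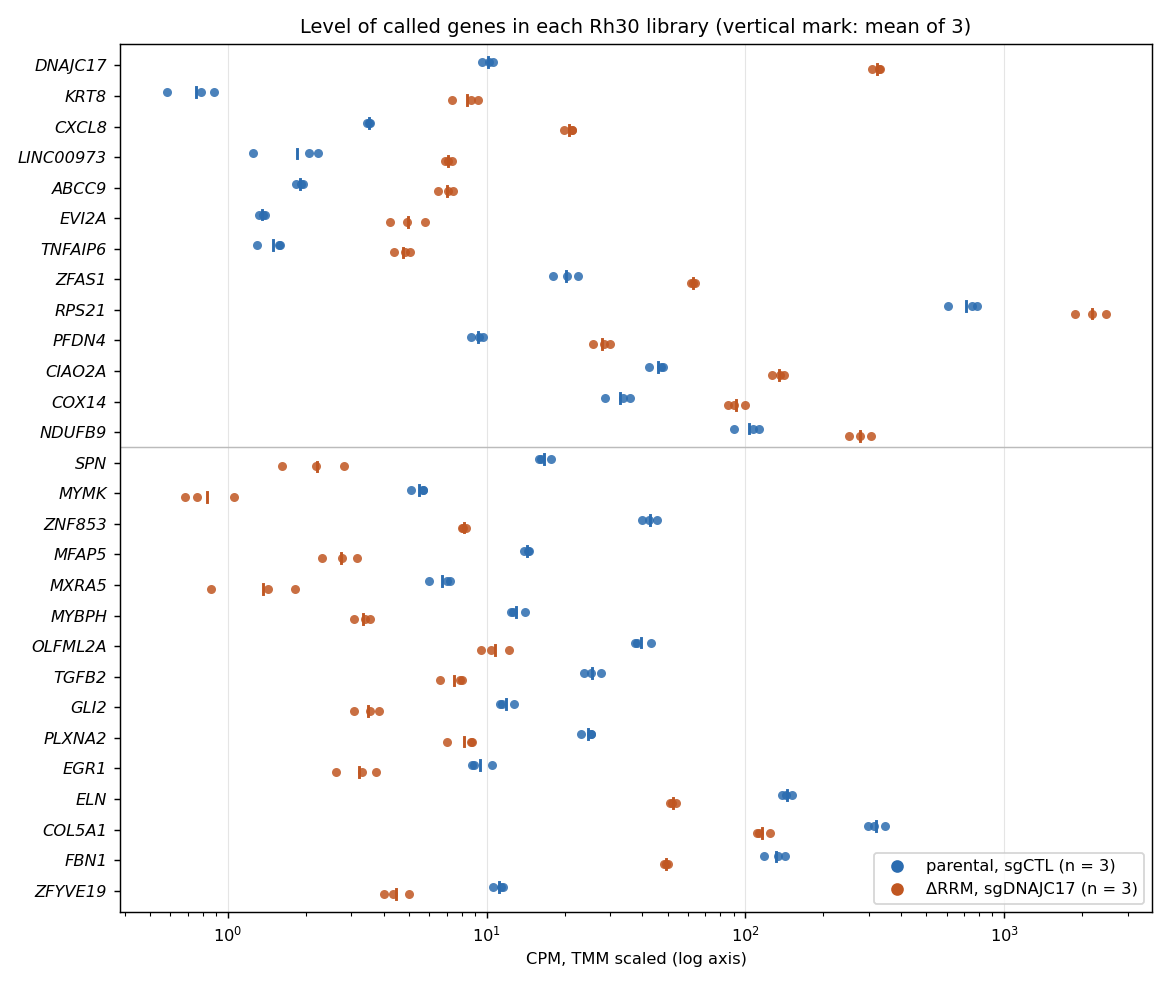
Level of 28 called genes in each of the 6 Rh30 libraries, in CPM on a log axis, with blue points for parental cells with sgCTL, orange points for ΔRRM cells with sgDNAJC17, and a vertical mark at each mean of 3. No gene shown has overlapping groups, and *DNAJC17* has the widest gap, from 9.56 to 10.6 CPM with sgCTL to 307 to 330 CPM in ΔRRM cells.

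Collagens and other matrix proteins form the scaffold around cells. Of 41 tested, 10 were called down (24.4%, beside 3.32% of all genes tested) and 1 up, and 37 were lower. The median log2 fold change was -0.80, beside -0.01 for all genes tested. The library medians of the list, relative to the sgCTL mean, were -0.84, -0.78 and -0.80 in ΔRRM cells and between -0.04 and 0.07 with sgCTL. The elastin gene *ELN* had 151, 143 and 139 CPM with sgCTL and 54.0, 51.0 and 51.9 CPM in ΔRRM cells (log2 fold change -1.47, SE 0.06, edgeR adjusted p = 5.85e-28). *COL5A1*, a chain of type V collagen, had 345, 314 and 298 CPM against 110, 113 and 124 CPM (-1.46, SE 0.07). *FBN1*, the gene of the microfibril protein fibrillin, had 133, 118 and 142 CPM against 48.6, 50.2 and 49.4 CPM (-1.41, SE 0.07). The 3 genes were lower in every ΔRRM library, and after the GC and length correction their changes were -0.95, -0.75 and -0.998, each short of a 2-fold change. Low-level members fell further, with *FBLN2* at -2.21, *COL1A2* at -1.96 and *LAMA1* at -1.71. The member called up was *LUM*, the proteoglycan lumican (2.15). After the correction 4 members were called down and 1 up, with a median of -0.40. In the knockdown, which shares the sgCTL libraries, the median of the list was -0.22. Of 23 integrins and matrix receptors, 3 were called down and 1 up (median -0.57), and the correction left 1 down and 1 up (median -0.19). The dystroglycan gene *DAG1* (-1.14, and -0.77 corrected) and the syndecan gene *SDC3* (-1.19, and -0.70 corrected) lost their calls.

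Skeletal muscle genes were lower in the main, with few calls. Over all genes tested 3.32% were called down and 7846 of 15442 were lower. Of 31 genes of muscle differentiation, 4 were called down, 0 up and 28 were lower (median -0.52, and -0.45 after the GC and length correction). They included *MYMK*, *MYBPH* and *UNC45B*, the gene of a myosin chaperone (-1.85). Of 21 core regulators of rhabdomyosarcoma, 2 were called down, 0 up and 19 were lower (median -0.53, and -0.36 with 1 call after the correction). *MYCN*, the oncogene of the MYC family, had 5.28, 5.14 and 5.14 CPM with sgCTL and 2.48, 2.73 and 2.12 CPM in ΔRRM cells. Its log2 fold change was -1.07 (SE 0.14, edgeR adjusted p = 4.7e-10), and without ΔRRM replicate C it was -0.99 and short of a call. *ASTN2* was the other member called (-1.12), and its call was lost after the correction (-0.73). *MYOG*, the myogenin gene, had 100.5, 111 and 108 CPM against 71.3, 60.5 and 64.0 CPM, a log2 fold change of -0.71 that is under the 2-fold requirement (edgeR adjusted p = 7.59e-15). The tyrosine kinase receptor gene *FGFR4* had a log2 fold change of -0.59. In the knockdown the medians of the muscle and core lists were -0.09 and -0.23.

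Genes of developmental signalling were lower as groups, where 3.32% of all genes tested were called down and 7846 of 15442 were lower. Hedgehog signalling runs from the receptor gene *PTCH1* through *SMO* to the GLI transcription factors. All 15 tested members were lower, 5 were called down, and the median was -0.66 (3 called and -0.45 after the GC and length correction). *GLI2*, a GLI activator, had 12.8, 11.3 and 11.5 CPM with sgCTL and 3.07, 3.53 and 3.83 CPM in ΔRRM cells (-1.77, SE 0.11, edgeR adjusted p = 1.71e-21). Other members called included the receptor gene *PTCH1* (-1.07), named after its values were seen, and the forkhead genes *FOXL1* (-1.32) and *FOXC2* (-1.10). *FOXC2* lost its call without ΔRRM replicate A (-0.88). Notch signalling counted 5 of 25 called down and 0 up (median -0.72), and the correction left 1 down and 1 up (median -0.36). The receptor genes *NOTCH1* and *NOTCH3* had log2 fold changes of -1.11 and -1.03, and -0.38 and -0.33 after the correction. *NOTCH3* lost its call without sgCTL replicate A (-0.95), ΔRRM replicate A (-0.955) or ΔRRM replicate B (-0.99). *HEYL*, a target of Notch, had 72.0, 71.1 and 67.7 CPM against 34.4, 31.5 and 35.0 CPM (-1.06, and -0.94 corrected). *NRARP*, a feedback inhibitor, was called at -1.19 and lost the call without ΔRRM replicate B (-0.995). In the knockdown the Hedgehog and Notch medians were -0.22 and -0.39.

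Guidance receptors, growth factors and early response genes held further calls. Their counts stand beside 6.66% called up and 3.32% called down over all genes tested, and several rest on 1 or 2 genes. Of 41 axon guidance ligands and receptors, 4 were called down, 1 up and 35 were lower (median -0.50, and -0.20 with 2 down and 1 up after the correction). The semaphorin receptor gene *PLXNA2* had 25.4, 25.3 and 23.1 CPM with sgCTL and 7.02, 8.81 and 8.73 CPM in ΔRRM cells (-1.59, SE 0.09, edgeR adjusted p = 1.03e-23). *EFNB2*, an ephrin ligand gene, was at -1.16, *SEMA6C* at -1.19 (-0.67 corrected), and *PLXNC1*, the member called up, at 1.19. The TGF-β ligand gene *TGFB2* had 27.6, 25.4 and 23.7 CPM against 6.58, 8.03 and 7.86 CPM (-1.77), while its list of 33 TGF-β and BMP genes had a median of -0.06. Of 15 genes of the insulin-like growth factor axis 2 were called down (median -0.59, and -0.29 with 0 calls after the correction), namely the ligand gene *IGF2* (-1.27, and -0.79 corrected) and the protease gene *PAPPA* (-1.10, and -0.76 corrected). *PAPPA* lost its call without ΔRRM replicate A (-0.96). Of 21 immediate early genes, which respond within minutes to growth signals, 4 were called down and 0 up (median -0.45). *EGR1* had 10.5, 8.80 and 8.92 CPM against 3.73, 2.61 and 3.30 CPM (-1.55, SE 0.12, edgeR adjusted p = 1.89e-17). *FOS* was at -1.20, *NR4A3* at -1.24 and *NR4A1* at -1.04. *NR4A1* lost its call without sgCTL replicate A (-0.965) or ΔRRM replicate A (-0.62). The median of the early genes was 0.14 in the knockdown. All 16 clustered protocadherins, adhesion proteins whose genes lie side by side and share exons in part, were lower (median -0.61), and 2 were called. *PCDHB10* was at -1.38 and *PCDHB15*, whose groups overlapped, at -1.08. Their calls were lost without sgCTL replicate A, and *PCDHB15* also lost its call without sgCTL replicate B or C or ΔRRM replicate A or B (edgeR adjusted p = 0.0512 to 0.289).

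**Figure D2:**
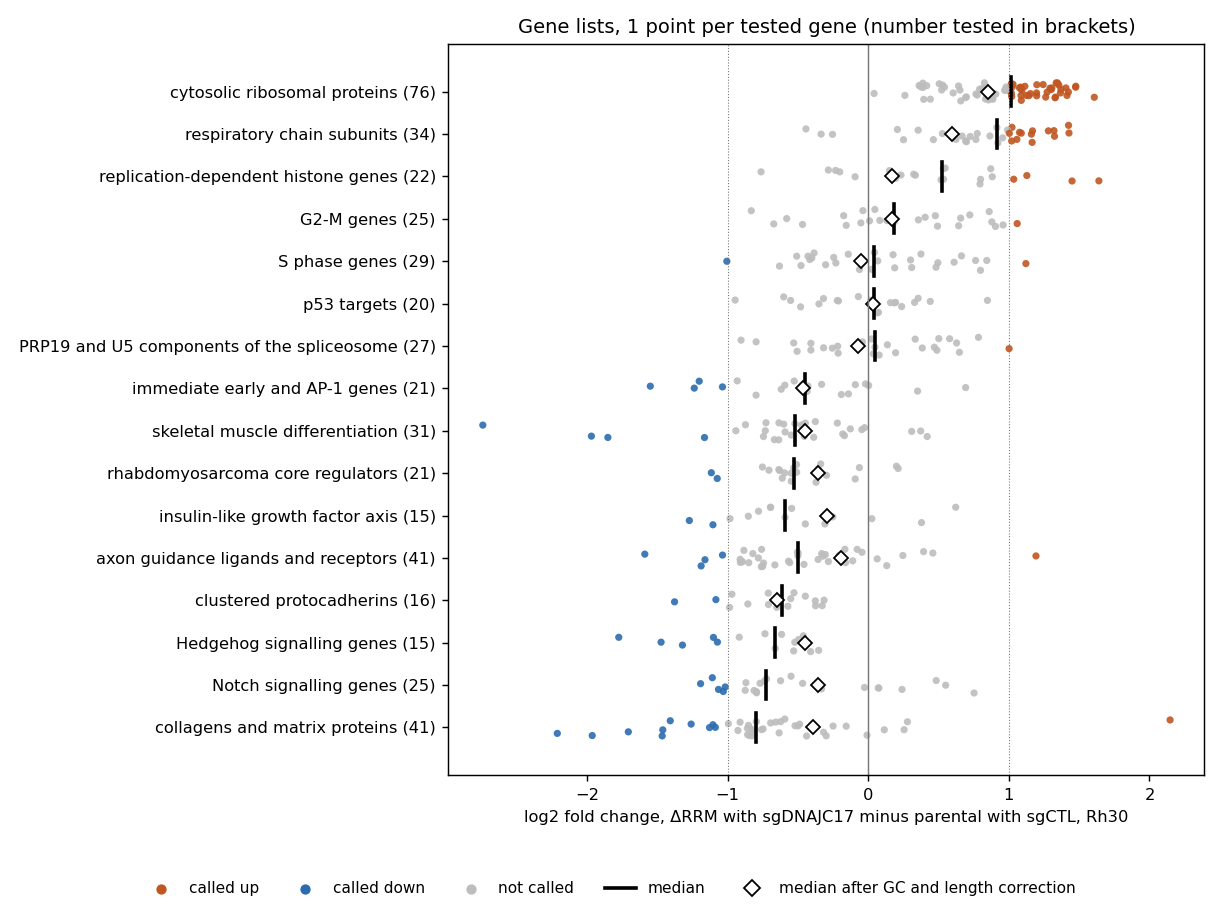
Log2 fold change of every tested gene of 16 lists in Rh30, ΔRRM with sgDNAJC17 minus parental with sgCTL, with called genes in colour, a black bar at each median and a diamond at the median after the GC and length correction. Ribosomal proteins (median 1.01) and respiratory chain subunits (0.92) lie highest, and collagens and matrix proteins (-0.80) lowest.

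Among called genes with a mean count of at least 100 and groups that did not overlap, those that rose furthest were of several kinds. *DNAJC17* aside, they included a keratin, a chemokine, a channel subunit and several lncRNAs. Larger rises fell outside that rule, up to 4.65 among epithelial genes and 4.26 among cadherins, and 3.61 for *KRT18*. *KRT8*, a keratin of simple epithelia, had 0.89, 0.79 and 0.58 CPM with sgCTL and 8.69, 7.33 and 9.23 CPM in ΔRRM cells (log2 fold change 3.48, SE 0.16, edgeR adjusted p = 5.89e-27). It had a log2 fold change of 3.49 in the knockdown and of -0.03 between ΔRRM and knockdown libraries. *CXCL8*, the gene of the chemokine interleukin-8, had 3.50, 3.46 and 3.55 CPM against 21.3, 19.9 and 21.4 CPM (2.57, SE 0.10, edgeR adjusted p = 5.55e-31). Its change was 1.52 in the knockdown and 1.04 between ΔRRM and knockdown libraries. *ABCC9*, a subunit of potassium channels gated by ATP, had 1.93, 1.84 and 1.95 CPM against 7.42, 7.11 and 6.52 CPM (1.88, SE 0.13, edgeR adjusted p = 3.03e-19). These genes too were named on the condition that the groups did not overlap. The 15 with the largest rise and a mean count of at least 100 were these 3, *DNAJC17* and *LINC00973* (1.94), *EVI2A* (1.86), *CGB5* (1.78), *C4orf19* (1.70), *TNFAIP6* (1.67), *ZFAS1* (1.63), *LINC01943* (1.62), *RPS21* (1.61), *FAM229B* (1.603), *PFDN4* (1.597) and *BCYRN1* (1.59). After the GC and length correction *TNFAIP6* (0.89) and *PFDN4* (0.63) lost their calls. *CGB5* belongs to a set of near-identical chorionic gonadotropin genes, and counting could have split reads among them.

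Transcripts of the cytosolic ribosome were higher throughout. All 76 ribosomal protein genes tested were higher, 39 were called up (51.3%, beside 6.66% of all genes tested) and 0 down, and the median was 1.01. The library medians of the list were 1.01, 0.90 and 1.10 in ΔRRM cells and between -0.14 and 0.06 with sgCTL. *RPS21* had 606, 752 and 784 CPM with sgCTL and 2189, 1877 and 2460 CPM in ΔRRM cells (1.61, SE 0.08, edgeR adjusted p = 2.86e-25). *RPS7* (1.48), *RPL17* (1.47) and *RPS14* (1.42) followed, and *RPS2* had the smallest change (0.04). After the GC and length correction, which uses the length of all annotated exons rather than of the mRNA, 21 were called up and the median was 0.85. With library totals it was 0.78. In the knockdown the median was 0.34, and in the same contrast of ES8 it was 0.19. Many processed pseudogenes copy these genes, so reads could have been split among them. In the same libraries 83 of 340 processed pseudogenes were called up (24.4%, beside 6.66% of all genes tested) and 9 down.

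Respiratory chain subunits of the nuclear genome moved with them. Of 34 tested, 14 were called up (41.2%, beside 6.66% of all genes tested), 0 down and 31 were higher (median 0.92). *NDUFB9*, of complex I, had 90.5, 112 and 107 CPM with sgCTL and 277, 251 and 306 CPM in ΔRRM cells (1.43, SE 0.07, edgeR adjusted p = 9.86e-26). *COX7A2*, of complex IV, had 46.1 to 54.3 CPM against 121 to 153 CPM (1.42, SE 0.07). *UQCRQ*, of complex III, and *NDUFA4* were both at 1.32. The correction left 5 calls and a median of 0.59, and *COX7A2* (0.88), *UQCRQ* (0.87) and *NDUFA4* (0.95) lost their calls. The lower members included *SDHA* (-0.44) and *NDUFV1* (-0.25), named after their values were seen. The assembly factor gene *COX14* (1.49) and the ATP synthase gene *ATP5MK* (1.45) were among the 10 rising genes with the smallest p, with *CIAO2A* of iron-sulphur cluster delivery (1.55), the ribosome biogenesis gene *RSL24D1* (1.46) and *TMEM14C* (1.46). Genes of the mitochondrial genome did not share the direction. Of 23 tested, 3 transfer RNA genes were called up and 1 down (median -0.10), and after the correction 0 were up and 2 down (median -0.69). Mitochondrial counts made up 0.556% to 0.617% of sgCTL and 0.439% to 0.486% of ΔRRM libraries.

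Among other classes, 214 of 1837 lncRNA genes were called up and 64 down, beside 672 up and 401 down of 12515 protein-coding genes. After the GC and length correction 371 protein-coding genes were called up and 209 down, of 505 up and 458 down over all classes. The corrected calls outside protein-coding genes were thus mostly down, and the excess of up calls there depended on the correction. Of 22 replication-dependent histone genes, whose mRNAs mostly lack poly(A) tails, 4 were called up (median 0.53), and the correction left 2 up and 1 down (median 0.17). The highest were *H4C3* at 1.64 and *H3C13*, whose groups overlapped, at 1.45. *H2AC8* (1.13) and *H2AC17* (1.03) completed them and lost their calls with library totals (0.89 and 0.80) and after the correction (0.85 and 0.84). *H2AC17* did so also without sgCTL replicate B (0.84) or ΔRRM replicate B (0.89). The histone genes are close copies of each other and their counts are uncertain. Of 43 J-domain genes, 6 were called up, with *DNAJC17* itself (4.99) among them, and 0 down (4 up and 0 down after the correction). *DNAJA4* was at 2.08 from 0.12 to 0.19 CPM with sgCTL, and the mitochondrial *DNAJC19* (1.13) and the stress gene *DNAJB9* (1.18) lost their calls after the correction (0.70 and 0.63).

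Several programmes lay near the background. Of 29 S phase genes, 1 was called up (*PCNA*, 1.12) and 1 down (*POLE*, -1.01, a call lost without sgCTL replicate A or ΔRRM replicate A or B), with a median of 0.04 (-0.05 after the correction and -0.19 with library totals). Both calls were lost after the correction (*PCNA* 0.61 and *POLE* -0.34). Of 25 G2-M genes, 1 was called up (*HMMR*, 1.06), with a median of 0.19 (-0.05 with library totals). That call was lost after the correction (0.61) and without ΔRRM replicate B (0.98). *CCNB1*, the cyclin B1 gene, had 348, 384 and 391 CPM with sgCTL and 691, 686 and 726 CPM in ΔRRM cells, a log2 fold change of 0.91. Of 20 p53 targets 0 were called by edgeR, since all changes were under 2-fold, although 6 were higher and 8 lower at an adjusted p below 0.05. They ranged from *BTG2* (-0.95, and -0.93 with DESeq2) to *RRM2B* (0.85, and 0.86 with DESeq2), and *BTG2* was called after the GC and length correction (-1.12). This list does not hold every such gene, and the apoptosis gene *PMAIP1*, called up at 1.41, is not on it. Of 27 PRP19 and U5 components of the spliceosome, 1 was called (*BUD31*, 1.00, a call lost without sgCTL replicate A or C or ΔRRM replicate C), with a median of 0.05, and the correction ended that call (0.89). Of 24 genes of the integrated stress response, 1 was called (*SLC7A5*, an amino acid transporter gene, -1.01, lost without sgCTL replicate A and after the correction, at -0.63).

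The change followed gene length and GC content. In the shortest decile of protein-coding genes by exonic length (up to 2165 bases) the median log2 fold change was 0.45, with 197 genes called up and 23 down. In the longest decile (from 10536 bases) it was -0.42, with 28 up and 64 down. The decile with the lowest GC content had a median of 0.44 (128 up and 5 down), and the decile with the highest -0.50 (24 up and 113 down). After the correction the outer deciles lay between -0.14 and 0.17. Each library showed the trend on its own side. Relative to the mean of the 9 Rh30 libraries, the shortest minus the longest decile was -0.50, -0.30 and -0.39 with sgCTL and 0.54, 0.36 and 0.54 in ΔRRM cells. The knockdown libraries lay between them, at -0.26, 0.03 and -0.02. The lists above differ in length, since ribosomal protein genes had a median exonic length of 2980 bases and matrix genes of 6873 bases. These lengths count all annotated exons of a gene and can exceed its mRNA, so the correction did not act on mRNA length itself. The corrected medians of ribosomal protein genes (0.85) and respiratory chain subunits (0.59) carry that limit. In ES8 the shortest decile had a median of 0.12 and the longest of -0.12, and the GC deciles lay between -0.04 and 0.04. The source of the trend was not tested.

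**Figure D3:**
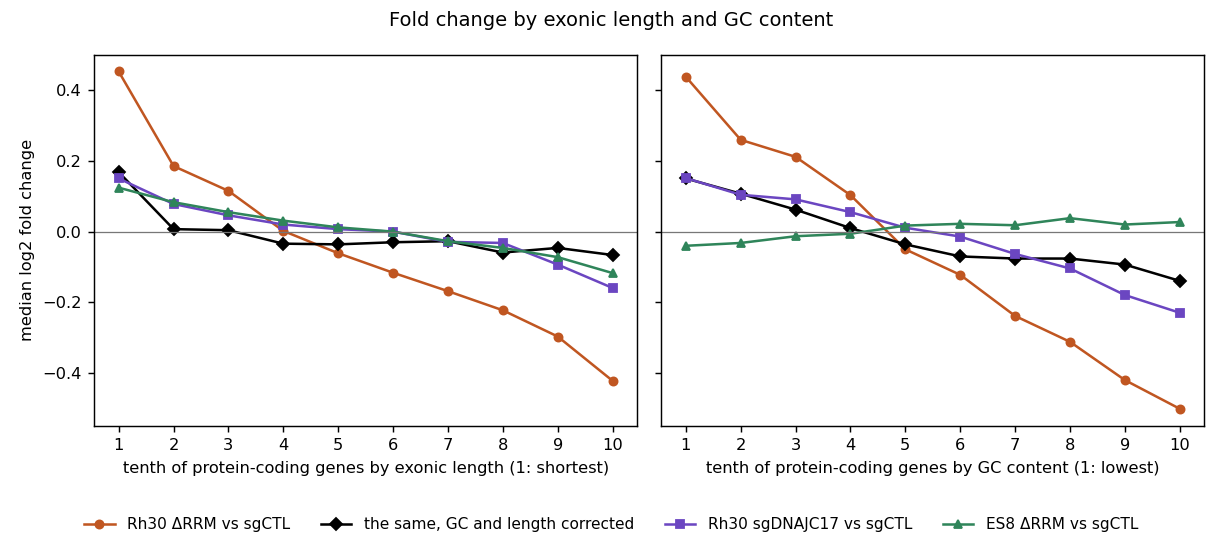
Median log2 fold change of protein-coding genes in deciles by exonic length (left) and GC content (right), for Rh30 ΔRRM against sgCTL before and after the correction, the Rh30 knockdown and the same contrast in ES8. The uncorrected Rh30 line falls from 0.45 to -0.42 by length and from 0.44 to -0.50 by GC content.

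Neighbouring genes shifted together in a few places. This was described in stretches of 15 consecutive genes with a mean count of at least 100, a choice made after the values were seen, and no test was made of it. Over 11041 such overlapping stretches, the lowest percentile of corrected medians ended at -0.46 and the highest began at 0.42. The lowest, at -1.02, lay on chromosome 7 from 5973239 to 6753862 (GRCh38). The 14 genes from *EIF2AK1* to *CCZ1B* (chromosome 7, from 6022244 to 6826770) were all lower, 6 were called down, and in all 14 the groups did not overlap, as in 71.7% of all genes tested. Their library medians were -0.95, -0.98 and -1.03 in ΔRRM cells and between -0.01 and 0.01 with sgCTL. Besides *ZNF853*, they held *CYTH3*, a regulator of ARF GTPases, with 114, 105 and 111 CPM against 44.1, 42.9 and 43.1 CPM (-1.35, SE 0.06, edgeR adjusted p = 2.19e-26). *USP42*, a deubiquitinase gene, had 40.4, 38.3 and 37.3 CPM against 13.8, 13.9 and 11.8 CPM (-1.55, SE 0.08), and *ZNF316* was at -1.57. The small GTPase gene *RAC1*, named after its values were seen, was at -0.85 (-1.01 corrected). The median of the 14 genes was -0.99 (-1.05 corrected). It was 0.32 in the knockdown, -1.33 between ΔRRM and knockdown libraries and 0.02 in ES8. On the side toward the telomere, 13 more genes were all lower (median -0.83, and -0.52 corrected). On the other side the next 5 genes had a median of 0.37, with 4 higher. *PMS2CL* and *CCZ1B* have near-identical copies nearby, and their counts are uncertain.

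Chromosome 9 had the highest share of genes called down, 65 of 631 (10.3%, beside 3.32% of all genes tested). From 126326849 to 137870016, 143 of 162 genes with a mean count of at least 100 were lower, 34 were called down and 2 up. Over all genes tested 7846 of 15442 were lower. After the correction *MYMK* (-2.84), *FAM78A* (-1.21) and *ADAMTSL2* (-1.16) held a change of 2-fold or more. The other called genes of the 162 fell short of it. The median of the 162 genes was -0.64 (-0.41 corrected), and -0.04 in the knockdown, -0.62 between ΔRRM and knockdown libraries and 0.02 in ES8. *MYMK*, *COL5A1*, *NOTCH1* and *NRARP* lie there. The 77 genes before that stretch, from 110243811, had a median of -0.19. On chromosome 18, from 39206924 to 47931146, 11 of 15 genes were higher and 4 were called up, with a median of 0.68 (0.69 corrected, -0.07 in the knockdown and -0.01 in ES8). After the correction all 4 fell short of a 2-fold change (0.64 to 0.97). Of the 40 genes after it, from 48539046 to 68715298, 24 were higher and 6 were called up, with a median of 0.28 (0.26 corrected). All genes tested on chromosome 18 had a median of 0.29, so the shift was not confined to that stretch. Whether the stretches on the 3 chromosomes go with the allele or with the separately made population cannot be told apart.

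**Figure D4:**
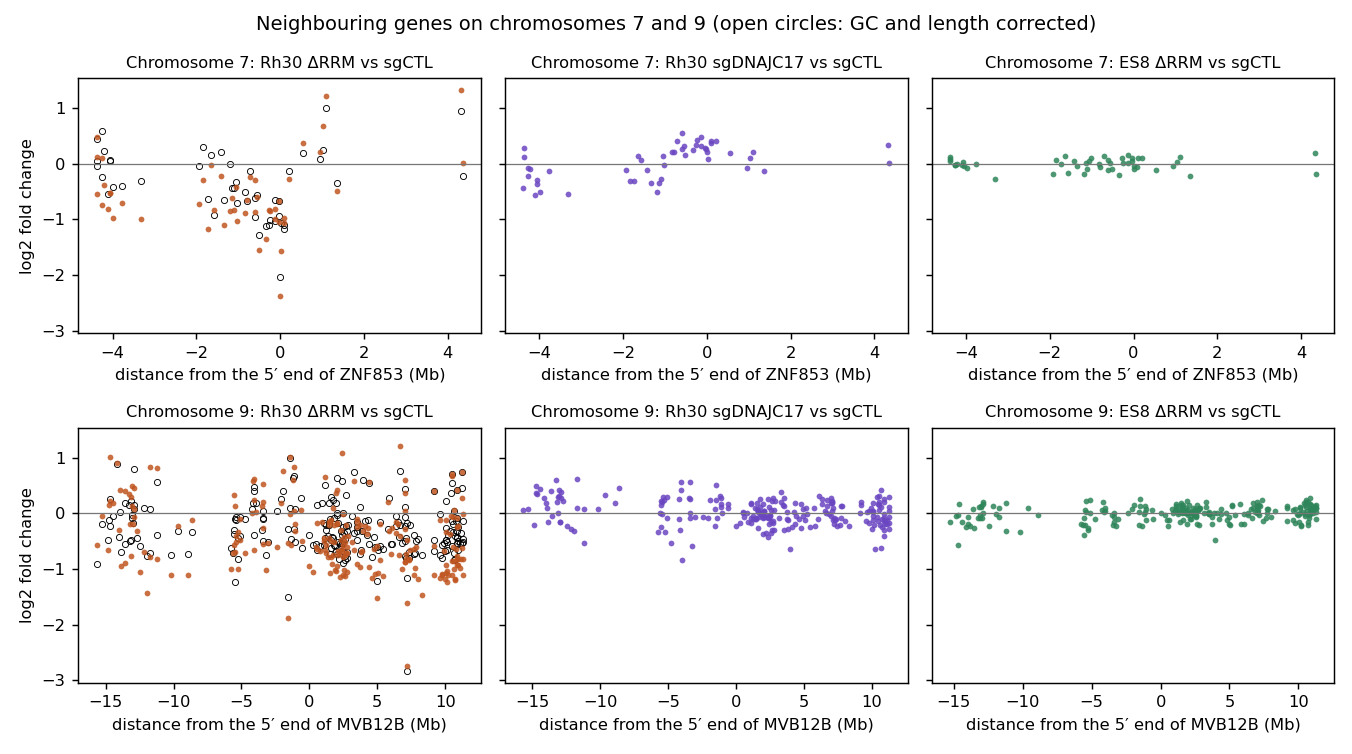
Log2 fold change of genes with a mean count of at least 100 around the 5' end of *ZNF853* on chromosome 7 (top) and of *MVB12B* on chromosome 9 (bottom), by distance in Mb, in 3 comparisons, with open circles for corrected values. In Rh30 ΔRRM cells the genes next to *ZNF853* lie below 0 (median of 14 genes -0.99), and those beyond *MVB12B* are mostly lower (143 of 162), while ES8 medians are 0.02 in both.

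Markers of other cell types were also counted, and all sums of markers are given here in CPM scaled by library totals, not by TMM. With library totals the median log2 fold change of all genes tested was -0.25. Of 32 epithelial genes, 22 were tested, 15 were higher and 7 lower, and 8 were called up (36.4%, beside 6.66% of all genes tested) and 0 down. The median was 0.40 (0.71 after the GC and length correction). In the knockdown, which shares the sgCTL libraries, the median was 0.39, and between ΔRRM and knockdown libraries it was -0.12. Sums were taken over 17 of the 32 genes, a subset that leaves out most of the lower members. Of its 11 genes tested 10 were higher, 1 was lower and 5 were called up. Its summed level, scaled by library totals, was 260 to 272 CPM with sgCTL and 289 to 304 CPM in ΔRRM cells. In the knockdown it was 271 to 287 CPM. At least 1 count was found for 15 of the 17 with sgCTL and for all 17 in ΔRRM cells, and *EPCAM*, a defining marker, had 3 to 9 counts and 6 to 9 counts. *TFF1* met the rule for presence in 1 group, with 1, 1 and 1 counts against 26, 21 and 21, and with 33, 25 and 28 counts in the knockdown. Of 14 blood cell genes 2 were tested and 0 called, and *PTPRC* had at most 4 counts in these libraries. Endothelial markers summed to 96.9 to 114 CPM with sgCTL and 57.4 to 64.0 CPM in ΔRRM cells, and *CDH5* had at most 1 count. Fibroblast markers summed to 495 to 517 CPM and 345 to 353 CPM, with 1 of 9 called up and 2 down, and Schwann and melanocyte markers to 23.7 to 27.8 CPM and 14.9 to 15.5 CPM. Rh30 identity markers summed to 3011 to 3221 CPM with sgCTL and 1751 to 1892 CPM in ΔRRM cells, and all 9 tested were lower. The part of other cells in these changes was not tested, and in bulk RNA fewer cells of a kind and less RNA per cell cannot be told apart.

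The same contrast in ES8 gave a test of what differed between the lines. *KRT8* had log2 fold changes of 3.48 in Rh30 and -0.21 in ES8, and *KRT18*, its partner keratin, of 3.61 and 0.43. *ZNF853* had -2.39 and -0.04, *ELN* -1.47 and -0.15, and *COL5A1* -1.46 and 0.04. *THBS1*, the gene of the matrix protein thrombospondin-1, had 675, 589 and 619 CPM with sgCTL and 253, 267 and 266 CPM in Rh30 ΔRRM cells (-1.26), and its change in ES8 was 0.27. *LTBP1*, which binds latent TGF-β, had -0.89 in Rh30 and 0.52 in ES8. These genes were named because their interaction had the lowest p (edgeR adjusted p at most 3.41e-09), so that each passed was set by the choice. *DNAJC17* rose in both lines, by 4.99 in Rh30 and 4.64 in ES8 on the log2 scale.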

How the data were processed

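RNA from 3 Rh30 ΔRRM libraries with sgDNAJC17 and 3 parental Rh30 libraries with sgCTL was compared, and the other 12 libraries of the series served for side comparisons. Polyadenylated RNA was sequenced by Genewiz from NEBNext Ultra libraries, which do not mark strand. The authors deposited raw counts per gene, 1 table per library of 57500 genes. The submitters' processing notes name Trimmomatic 0.36, STAR 2.5.2b, featureCounts of Subread 1.5.2 and GRCh38, while the study's methods name hg19. Gene starts lay no more than 1 kb from the GRCh38 annotation for 85.3% of 18942 protein-coding genes and from the GRCh37 annotation for 4.03%, so GRCh38 is used. A reference annotation gave symbols for 55082 genes.

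The test was edgeR's (version 4.0.16, R 4.3.3, with TMM, filterByExpr, quasi-likelihood test, Benjamini-Hochberg adjustment). DESeq2 1.42.0 was an alternative. The fit estimated the spread between replicate libraries, and that spread set the precision. It went beyond counting error (chi-square per gene of 4.355 to 14.533 between replicates of the groups compared). To correct for GC and length, a lowess curve was fitted to the log2 deviations of a library and entered as an offset. List medians per library use log2(CPM + 0.05). The fits were run on simulated data with and without a length trend. These held no GC trend, so the GC part of the correction was not tested there. Libraries with the same letter did not deviate together (correlations across genes of -0.024, -0.045 and -0.003 for A, B and C), so the letter was not a block.

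The genes and lists were chosen with earlier results of these data known. Named by rule are *DNAJC17*, genes starting within 50 kb of it, in each direction the 15 called genes that changed most (mean count of at least 100, groups not overlapping), the 10 with the smallest p, up to 4 genes per list, 5 per direction of the interaction, and genes present in 1 group (at most 2 counts against at least 20). Others are marked, and neighbours in the 3 stretches were named after their values were seen. Some genes of the lists are not reported here. The analysis also used Python 3.11.15, numpy 2.4.6, pandas 2.3.3, scipy 1.17.1, limma 3.58.1 and matplotlib 3.10.9.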

Additional observations from a re-analysis of the deposited data

Results flagged for a closer look

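The change between ΔRRM and sgCTL libraries differed between Rh30 and ES8 by a test of the difference itself for 1255 genes (edgeR, at the thresholds used above). In each direction 5 genes, those of lowest p, are given as Rh30 minus ES8 on the log2 scale. Those with the higher value in Rh30 were *KRT8* (3.685), *KRT18* (3.18), *CIAO2A* (1.396), the apoptosis gene *PMAIP1* (1.27) and *MAT2B* (1.22). *PMAIP1* had 22.4, 23.0 and 21.9 CPM in Rh30 with sgCTL and 60.2, 57.5 and 60.6 CPM in ΔRRM cells, a log2 fold change of 1.41 there and 0.14 in ES8. *CIAO2A* had 1.55 and 0.16, and *MAT2B*, a subunit of methionine adenosyltransferase, 1.28 and 0.06. Those with the lower, more negative value in Rh30 were *ZNF853* (-2.35), *THBS1* (-1.53), *COL5A1* (-1.498), *LTBP1* (-1.41) and *ELN* (-1.32). The cause of the difference was not tested.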

How the results depend on the processing

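Calls of 1028 genes up and 512 down became 422 and 1476 with library totals alone, and 505 and 458 after the GC and length correction (507 up with the replicate block added). Without a fold change requirement they were 5216 and 5410, and at a fold change of 4 they were 49 and 24. With 1 Rh30 library left out of the ΔRRM against sgCTL comparison, between 917 and 1177 were up and between 464 and 612 down. The letters do not pair the samples, and with the replicate block alone 1026 were up and 510 down. The 6 genes called in ES8 were 10 with DESeq2, 11 with the replicate block and 2 to 16 with a library left out (16 without ES8 ΔRRM replicate A, 3 without replicate C, and 2 without ES8 sgCTL replicate A, B or C). The 1255 interaction genes were 793 with at least 10 counts in every library and 830 after the GC and length correction, an alternative added after seeing the data, and 1015 to 1483 with a library left out.

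Of the 136 named genes called, 132 kept the call with DESeq2, 116 with library totals and 86 after the GC and length correction, and none of these genes reversed. The log2 fold changes of *HSPE1* (0.70), *SGCE* (0.66) and *TIE1* (-0.17), not called, became -0.019, -0.064 and 0.351 with that correction, and -0.020, -0.066 and 0.348 with the replicate block added. Among list medians, those of glycolysis genes (0.078), PRP19 and U5 components (-0.071) and small nucleolar RNAs (-0.18) changed sign with it, as did S phase genes (-0.052). With library totals, the integrated stress response (-0.11), PRP19 and U5 components (-0.19), J-domain proteins (-0.14), small nucleolar RNAs (-0.079) and chromosome 19 zinc finger genes (-0.11) did so, as did heat shock proteins (-0.01), G2-M genes (-0.05), S phase genes (-0.191) and p53 targets (-0.194). The correction and the scaling act on these values by construction, and their source in the samples was not tested.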

Other observations

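Further lists held few calls in ΔRRM cells against sgCTL, where 6.66% of all genes tested were called up and 3.32% down. Of 210 zinc finger genes of chromosome 19, many of them repressors with a KRAB domain, 5 were called up and 0 down, with a median log2 fold change of 0.12. The 5 called, *ZNF627*, *ZNF613*, *ZNF582*, *ZNF846* and *ZNF878*, had log2 fold changes of 1.03 to 1.09. After the GC and length correction 0 were called up and 2 other members down. *ZNF582* lost its call also without sgCTL replicate A or B or ΔRRM replicate C (0.95 to 0.98), and *ZNF846* without sgCTL replicate C (0.89) or ΔRRM replicate C (0.83). Of 25 small nucleolar and Cajal body RNAs, 4 were called up and 0 down. They were *SNORD113-3* (1.66), *SNORA53* (1.597, with overlapping groups), *SCARNA12* (1.17) and *SNORA14B* (1.01), and small RNAs inside other genes can draw reads from their hosts. After the correction 0 were called up and 1 other member down. *SNORA53* lost its call without sgCTL replicate A or B or ΔRRM replicate A or B (edgeR adjusted p = 0.0761 to 0.162). *SNORA14B* did so without sgCTL replicate A or C or ΔRRM replicate A or B (edgeR adjusted p = 0.0577 to 0.114), and *SCARNA12* without ΔRRM replicate B (0.98). In the knockdown, which shares the sgCTL libraries, the median of this list was 0.72, and between ΔRRM and knockdown libraries it was -0.74.

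Of 29 interferon-stimulated genes, 2 were called up and 2 down, with a median of -0.02. *OAS3*, an antiviral sensor gene, had 25.5, 22.3 and 22.8 CPM with sgCTL and 7.61, 8.34 and 7.17 CPM in ΔRRM cells (log2 fold change -1.604, SE 0.09, edgeR adjusted p = 5.95e-24), and *IFITM1* stood at 2.01 with at most 0.47 CPM in any library. Of 23 imprinted genes, *IGF2* was called down (-1.27) and the lncRNA gene *MEG8* up (1.14). *TEK*, an angiopoietin receptor gene, was at -2.44, and the receptor gene *PDGFRB* at -1.23 (-0.78 corrected). Of 23 genes of the amplified 12q13 region 0 were called by edgeR, with changes from -0.81 to 0.74, although 6 were higher and 13 lower at an adjusted p below 0.05.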
